A study of Rattus norvegicus with 8 samples.

Results

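The dual-specificity phosphatases (DUSPs) that act on MAP kinases were followed in left ventricles of female, late-pregnant rats. The 10 genes Dusp1, Dusp2, Dusp4, Dusp5, Dusp6, Dusp7, Dusp8, Dusp9, Dusp10 and Dusp16 were taken by name, from probe sets whose platform annotation gives exactly 1 gene symbol. Each gene had 1 such probe set, so the members are 10 of the 28826 probe sets on the Affymetrix arrays. All 8 samples came from hearts that had undergone ischemia, an interruption of the blood supply, followed by reperfusion. The 3 placebo samples received vehicle at reperfusion, and the other 5 received the treatment labelled ILPD as 1 bolus of 5 mg/kg. The design text abbreviates the treatment as ITLD, the series title names Intralipid, a lipid emulsion for infusion, and that these are the same treatment is assumed. The comparison asks how treated hearts differed in their transcripts from vehicle hearts, and hearts without ischemia were not analysed here. Strain and age were not given in the sources used here, and each sample is whole ventricular tissue. The labels do not say that replicates came from separate animals, so the p-values measure only the spread between these samples, part of which may be technical.

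MAP kinases (ERK, JNK and p38) are switched on when a kinase phosphorylates both a threonine and a tyrosine in their activation loop, and DUSPs switch them off by removing both phosphates. Many DUSP genes are themselves induced by the kinases their products inactivate, which makes them feedback inhibitors. In the heart, ERK signalling is known from growth and from survival during reperfusion, while JNK and p38 respond to stress. Dusp1, Dusp2, Dusp4 and Dusp5 encode inducible nuclear enzymes, Dusp6, Dusp7 and Dusp9 encode cytoplasmic enzymes that prefer ERK, and Dusp8, Dusp10 and Dusp16 encode enzymes that prefer JNK and p38.

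The promoters of the 3 genes whose groups did not overlap (Dusp6, Dusp16 and Dusp2), and of Dusp1 and Dusp5, which varied most among the placebo arrays, are shown so that their sequences can be set beside the values. They run from 250 bases before to 50 bases after the annotated start, 5′ to 3′ on the gene's strand, from RefSeq on assembly GRCr8 (Dusp6 chr7:35979354-35979653, plus strand; Dusp16 chr4:169361459-169361758, minus strand; Dusp2 chr3:135009386-135009685, plus strand; Dusp1 chr10:17184603-17184902, plus strand; Dusp5 chr1:262543524-262543823, plus strand). Capitals mark matches on either strand to the 7 motifs searched.
Dusp6: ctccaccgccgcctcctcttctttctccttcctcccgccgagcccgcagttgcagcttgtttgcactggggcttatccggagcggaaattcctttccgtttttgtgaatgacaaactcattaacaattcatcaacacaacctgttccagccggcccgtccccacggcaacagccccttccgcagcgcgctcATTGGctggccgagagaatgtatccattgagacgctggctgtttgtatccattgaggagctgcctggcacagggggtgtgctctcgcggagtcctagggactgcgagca
Dusp16: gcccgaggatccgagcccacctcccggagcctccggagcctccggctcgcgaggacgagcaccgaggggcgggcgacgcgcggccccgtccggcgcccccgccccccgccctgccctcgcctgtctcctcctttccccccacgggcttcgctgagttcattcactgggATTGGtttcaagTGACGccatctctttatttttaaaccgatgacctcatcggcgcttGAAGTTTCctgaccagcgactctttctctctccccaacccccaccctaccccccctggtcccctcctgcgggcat
Dusp2: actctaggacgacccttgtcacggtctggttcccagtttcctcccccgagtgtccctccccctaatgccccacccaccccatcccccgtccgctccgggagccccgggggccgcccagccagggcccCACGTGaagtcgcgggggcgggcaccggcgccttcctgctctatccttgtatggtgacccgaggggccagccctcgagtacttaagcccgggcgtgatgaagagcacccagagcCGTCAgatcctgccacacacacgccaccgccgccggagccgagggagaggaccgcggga
Dusp1: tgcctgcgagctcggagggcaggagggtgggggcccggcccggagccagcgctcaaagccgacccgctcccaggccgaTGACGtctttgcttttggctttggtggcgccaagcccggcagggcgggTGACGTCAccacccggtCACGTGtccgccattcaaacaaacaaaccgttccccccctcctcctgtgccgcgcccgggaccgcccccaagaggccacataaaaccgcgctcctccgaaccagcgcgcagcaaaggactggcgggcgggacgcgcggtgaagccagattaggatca
Dusp5: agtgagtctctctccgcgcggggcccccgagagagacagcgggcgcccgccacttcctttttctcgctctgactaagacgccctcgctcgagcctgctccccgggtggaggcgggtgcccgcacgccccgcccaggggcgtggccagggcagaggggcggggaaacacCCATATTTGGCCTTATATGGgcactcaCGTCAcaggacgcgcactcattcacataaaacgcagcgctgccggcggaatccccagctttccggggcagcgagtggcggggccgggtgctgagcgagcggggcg

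Of the 10 members, 9 had a promoter in the RefSeq table. The full cAMP response element, TGACGTCA, was found in the window of Dusp1 and of no other of these 9, against 1.83% of all 33469 promoters of this length. Its shorter core TGACG, which the full element contains, lay in the windows of Dusp1, Dusp2, Dusp5 and Dusp16, against 21.2% of all promoters. The Dusp5 window alone held the CArG box, the motif of serum response factor, in 2 adjoining copies from base -82 to -63 before the start, against 1.64% of all promoters with at least 1. The E-box CACGTG lay in the windows of Dusp1, Dusp2 and Dusp9 (6.42% of all), and the CCAAT box in those of Dusp6, Dusp7, Dusp10 and Dusp16 (37.5% of all). The heat shock motif GAANNTTC matched in Dusp16 from base -25 to -18 (8.59% of all), and the AP-1 motif TGANTCA had 0 matches in the 9 windows (7.33% of all). The 9 windows held 56.3% to 81.0% G and C, against a median of 51.7% over all promoters. The shares were not matched for this base content. These are matches of letters in 1 window per gene and do not show that a factor was bound.

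Across the family, ILPD hearts had a higher Dusp6 and a lower Dusp16 transcript level than placebo hearts, and the other 8 members did not pass the test. The test was limma's moderated test on log2 values adjusted by Benjamini-Hochberg across the whole array, with 0.05 as the threshold. These 2 calls among 10 members stand beside 2.81% of all probe sets called in either direction, 1.96% higher and 0.857% lower in ILPD. Among named genes with 1 probe set each, 3.46% were called, 2.29% higher and 1.17% lower. The groups did not overlap for 3 members, Dusp2 and Dusp6 with all ILPD arrays higher and Dusp16 with all ILPD arrays lower, while 12.4% of all probe sets had no overlap (7.95% with ILPD higher and 4.42% with ILPD lower). The differences were positive for 7 members and negative for 3, with a median of 0.15 on the log2 scale against 0.02 over all probe sets, of which 58.5% were positive. With members this few, the counts describe these genes and test nothing about the family. A lower or higher level in whole tissue cannot tell fewer cells of a type from less RNA per cell.

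**Figure D1:**
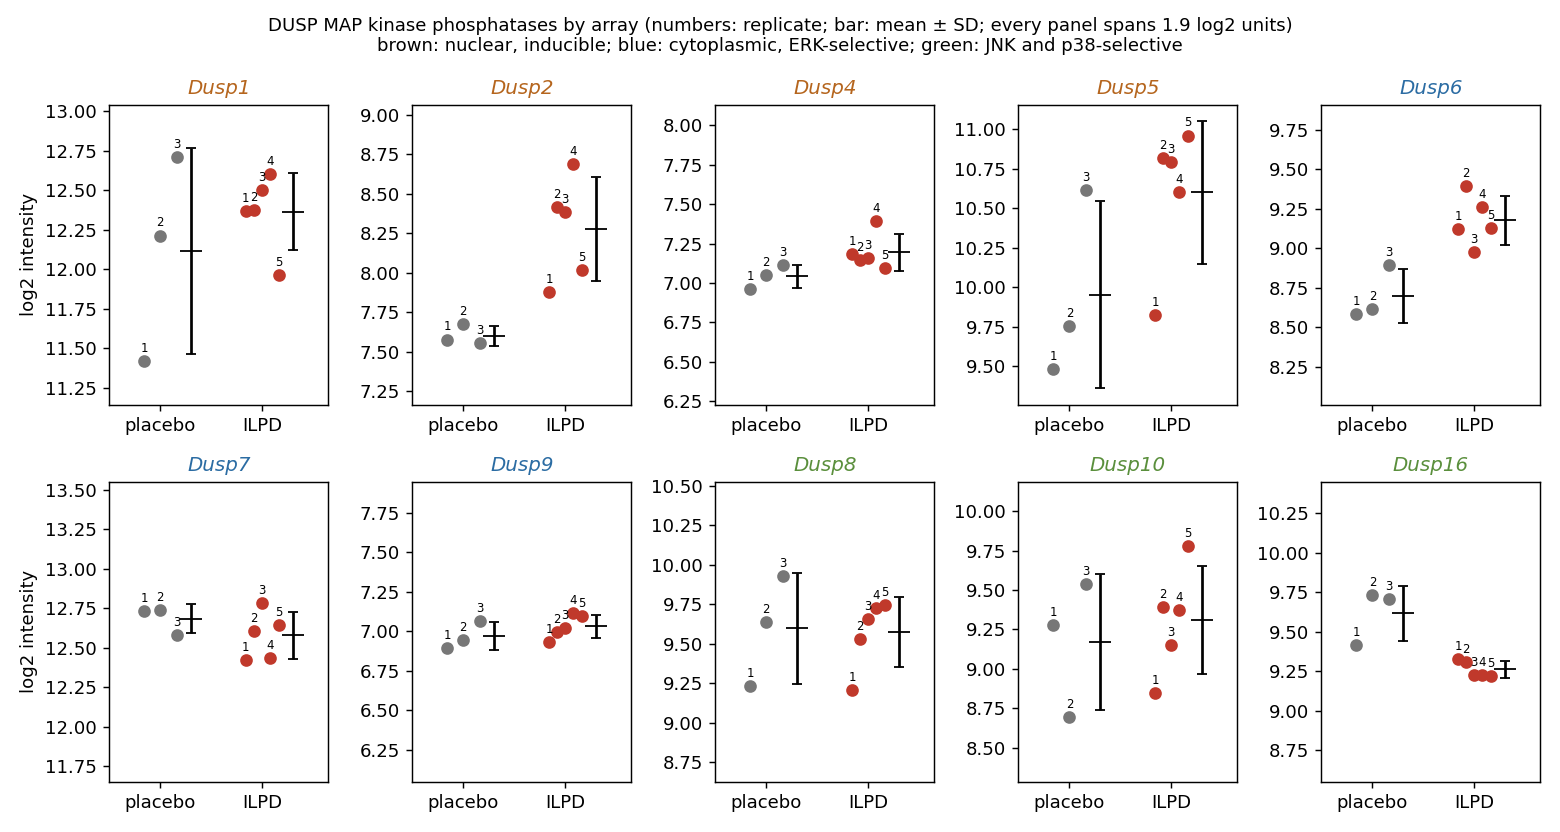
Log2 intensity of each DUSP in each array, for 3 placebo (grey) and 5 ILPD (red) samples, with replicate numbers at the points and the mean ± SD as a bar beside them; every panel spans the same 1.9 log2 units. The groups are apart for Dusp2, Dusp6 and Dusp16, and placebo values of Dusp1 and Dusp5 spread over 1.29 and 1.13 log2 units.

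Dusp6 encodes MKP-3, the cytoplasmic phosphatase that binds and inactivates ERK and is a standard readout of ERK feedback. Its log2 intensity (probe set 10895144) was 8.58, 8.61 and 8.89 in the placebo arrays and 9.12, 9.39, 8.98, 9.26 and 9.13 in the ILPD arrays. Every ILPD array lay above every placebo array, with the narrowest gap between placebo array 3 and ILPD array 3. Dusp6 rose by 0.48 on the log2 scale (SE 0.10, 95% interval 0.25 to 0.71, limma adjusted p = 0.0405), which is 1.39-fold. The placebo mean was 8.70 ± 0.17 (SD, n = 3) and the ILPD mean 9.18 ± 0.16 (SD, n = 5). The difference lay between 0.42 and 0.58 under all 14 alternatives that refit the test (the looser threshold of 0.1 changes no fit and is not counted), but its adjusted p ran from 0.0307 to 0.148, and it passed in 6 of the 14. Leaving out placebo array 1 or 2, or ILPD array 1, 2, 4 or 5, ended the call. A further quantile normalization (0.0515) and the replicate number as a block (0.148) also ended it.

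The other ERK-selective cytoplasmic members showed smaller differences. Dusp7, the close relative of Dusp6 also known as PYST2, was 12.73, 12.74 and 12.58 in placebo and 12.42, 12.60, 12.78, 12.44 and 12.65 in ILPD. Its groups overlapped, with a difference of -0.11 (95% interval -0.30 to 0.09, adjusted p = 0.586) that became 0.04 after quantile and 0.06 after cyclic loess normalization. Dusp9, which encodes MKP-4, ranged from 6.89 to 7.07 in placebo and from 6.93 to 7.11 in ILPD, and its difference was 0.06 (95% interval -0.08 to 0.20, adjusted p = 0.671), or -0.02 after quantile and -0.0039 after cyclic loess normalization. For both, the upper end of the interval lay below the estimate for Dusp6, but whether their differences were unlike that of Dusp6 was not tested.

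Dusp16 encodes MKP-7, a phosphatase that shuttles between nucleus and cytoplasm and acts on JNK and p38. Its log2 intensity (probe set 10866401) was 9.42, 9.73 and 9.71 in placebo and 9.33, 9.31, 9.23, 9.23 and 9.22 in ILPD. The ILPD arrays lay close together, all below the lowest placebo array. Dusp16 fell by 0.36 on the log2 scale (SE 0.08, 95% interval -0.53 to -0.18, limma adjusted p = 0.0424), with placebo 1.28-fold higher. The placebo mean was 9.62 ± 0.17 (SD, n = 3) and the ILPD mean 9.26 ± 0.05 (SD, n = 5). The difference stayed negative in all 14 alternatives, from -0.46 without placebo array 1 to -0.30 without placebo array 2, and the call held in 4 of them. It was lost without placebo array 2 or 3 and without ILPD array 2, 3, 4 or 5. Quantile (0.0633) and cyclic loess (0.0890) normalization, an intensity trend and robust prior (0.0598) and the replicate number as a block (0.157) also ended it. Over all 14 the adjusted p ran from 0.0147 to 0.157.

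The remaining members that prefer JNK and p38 did not pass the test. Dusp8 was 9.23, 9.63 and 9.93 in placebo and 9.20, 9.53, 9.66, 9.72 and 9.74 in ILPD, so that ILPD array 1 and placebo array 1 were the low ones. Its difference was -0.03 (95% interval -0.38 to 0.33, adjusted p = 0.955), and it changed sign in 5 of 14 alternatives. Dusp10, which encodes MKP-5, known for its action on p38 and JNK in immune cells and muscle, was 9.28, 8.70 and 9.54 in placebo and 8.85, 9.39, 9.15, 9.37 and 9.78 in ILPD. The groups overlapped widely, with a difference of 0.14 (95% interval -0.35 to 0.62, adjusted p = 0.801) that was -0.10 without placebo array 2. Whether the differences of these genes were unlike that of Dusp16 was not tested.

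**Figure D2:**
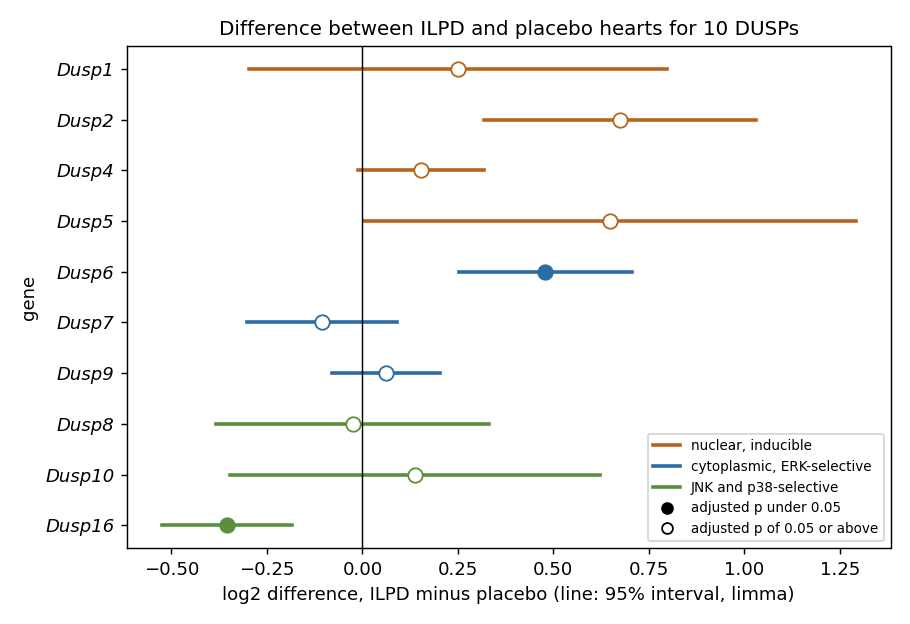
Difference between ILPD and placebo on the log2 scale for the 10 DUSPs, ordered by role, with limma's 95% interval as a line and filled points for an adjusted p under 0.05. Dusp6 (0.48) and Dusp16 (-0.36) are filled; Dusp2 (0.68) and Dusp5 (0.65) have larger estimates with wider intervals.

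Dusp2, among the nuclear inducible members, had the largest difference of the family in the values as deposited, without passing the test. Dusp5 exceeded it after quantile (0.72 against 0.61) and cyclic loess (0.74 against 0.63) normalization, with array weights (0.77 against 0.70) and without placebo array 3 (0.98 against 0.65), ILPD array 1 (0.84 against 0.77) or ILPD array 4 (0.65 against 0.57). Dusp2 encodes PAC-1, a phosphatase first known from activated lymphocytes and abundant in white blood cells. Its log2 intensity (probe set 10839579) was 7.58, 7.67 and 7.55 in placebo and 7.88, 8.42, 8.38, 8.69 and 8.02 in ILPD. All ILPD arrays lay above the placebo arrays, which were within 0.12 of each other, and the ILPD arrays spread over 0.81. The difference was 0.68 (SE 0.16, 95% interval 0.32 to 1.03, limma adjusted p = 0.0553), or 1.60-fold, with a placebo mean of 7.60 ± 0.06 (SD, n = 3) and an ILPD mean of 8.28 ± 0.33 (SD, n = 5). It passed in 4 of 14 alternatives: without the dimmest 40% of probe sets (0.0400), with array weights (0.0368), and without ILPD array 1 (0.0230) or 5 (0.0436). Over all 14 the adjusted p reached 0.156.

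Most measured markers of neutrophils, of monocytes and macrophages and of T and NK cells had a positive difference, as Dusp2 did. In each of these lists 1 marker passed the test, while 3.46% of all named genes passed in either direction and 2.29% were higher. Of the neutrophil markers, 10 of 11 measured had a positive difference, and their mean log2 level was 7.51 to 7.96 in placebo and 7.82 to 8.54 in ILPD. The T and NK cell markers were positive in 12 of 14. Their mean was 7.14 to 7.26 in placebo and 7.28 to 7.35 in ILPD, so that the groups did not overlap. The medians of the whole arrays did not overlap either (7.08 to 7.14 against 7.16 to 7.20). The T and NK list median of 0.07 was 0.03 after quantile and 0.04 after cyclic loess normalization, and 0.02 without placebo array 2. Monocyte and macrophage markers were positive in 11 of 14 (8.82 to 9.14 against 9.10 to 9.45), and B cell markers in 3 of 5 (6.63 to 6.85 against 6.56 to 7.02), a share near the 58.5% of all probe sets. Single markers that passed were the gelatinase Mmp9 (0.58, limma adjusted p = 0.0466), the chemokine receptor Cx3cr1 (0.76, 0.0311) and the lectin receptor Klrd1 (0.52, 0.0304), and these calls held in 2, 8 and 9 of 14 alternatives. In ILPD arrays 1 to 5, in order, Dusp2 was 7.88, 8.42, 8.38, 8.69 and 8.02. Neutrophil markers averaged 8.54, 8.43, 7.82, 8.34 and 7.98 in the same arrays. Monocyte and macrophage markers averaged 9.45, 9.35, 9.13, 9.10 and 9.22, and T and NK cell markers 7.34, 7.32, 7.28, 7.32 and 7.35. The part of these cells in the Dusp2 values was not tested. The arrays carry no detection call here, so no marker can be said to be absent.

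Dusp1 and Dusp5 ranged more widely among the placebo arrays than between the group means. Dusp1 encodes MKP-1, the classic immediate early phosphatase, which acts on p38, JNK and ERK. It was 11.42, 12.21 and 12.71 in the placebo arrays and 12.37, 12.38, 12.50, 12.61 and 11.97 in the ILPD arrays. Placebo array 3 was the highest of all 8 and placebo array 1 the lowest. The difference was 0.25 (95% interval -0.30 to 0.80, limma adjusted p = 0.653), and it was -0.10 without placebo array 1 and 0.55 without placebo array 3.

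Dusp5 encodes a nuclear phosphatase specific to ERK, which it also anchors in the nucleus. It was 9.48, 9.75 and 10.62 in placebo and 9.82, 10.82, 10.79, 10.60 and 10.96 in ILPD. Here 3 ILPD arrays lay above all placebo arrays, while ILPD array 1 lay just above the 2 lower placebo arrays and ILPD array 4 just below placebo array 3. The difference of 0.65 had a 95% interval from 0.0044 to 1.29 and did not pass (limma adjusted p = 0.270, and 0.0869 to 0.630 over 14 alternatives). It was 0.41 without placebo array 1 and 0.98 without placebo array 3. Dusp4, which encodes the nuclear MKP-2, was 6.96, 7.05 and 7.11 in placebo and 7.18, 7.14, 7.16, 7.39 and 7.09 in ILPD. Only ILPD array 5 fell inside the placebo range, and the difference was 0.15 (95% interval -0.01 to 0.32, adjusted p = 0.315). It was 0.07 after quantile and 0.09 after cyclic loess normalization.

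The order of the placebo arrays was shared by many early response genes. Placebo array 1 was the lowest and placebo array 3 the highest of the placebo arrays for Dusp1, Dusp4, Dusp5, Dusp6, Dusp8 and Dusp9. Over all 10 members array 3 was the highest of the placebo arrays for 7 and array 1 the lowest for 7, against 46.5% and 35.1% of all probe sets. Among 33 measured immediate early genes, which are transcribed within minutes of a stimulus, placebo array 3 was the highest for 27 and placebo array 1 the lowest for 24. The list's mean log2 level was 9.31, 9.56 and 10.10 in the placebo arrays and 9.54, 9.82, 9.76, 9.97 and 9.65 in the ILPD arrays. The ILPD values thus lay inside the placebo range. The part of this spread in the Dusp1 and Dusp5 values was not tested.

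**Figure D3:**
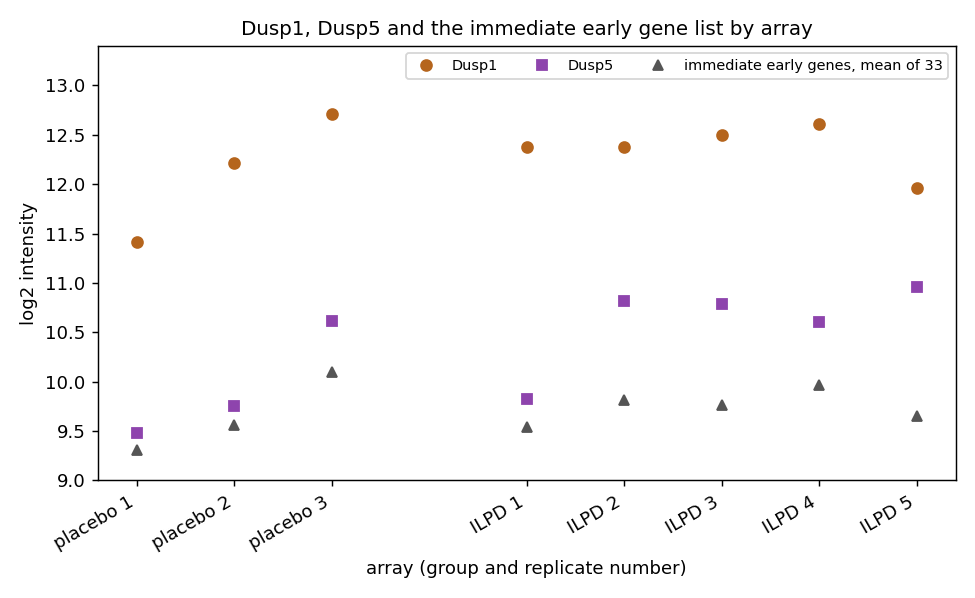
Log2 intensity of Dusp1, Dusp5 and the mean of 33 immediate early genes in each of 3 placebo and 5 ILPD arrays; heights of different genes are not comparable on an array. All 3 series are lowest in placebo array 1, and Dusp1 and the list mean are highest in placebo array 3.

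The rest of the MAP kinase pathway was read from 9 lists, of which 148 of 170 listed genes were measured with 1 symbol. Over these genes 4 rose and 2 fell (2.70% and 1.35%), against 2.29% and 1.17% of all named genes (3.46% in either direction), with a median difference of -0.01. The shares are close to those of the background. Counts at an unadjusted p under 0.05 are given for some lists below. The share of all probe sets at that threshold was not counted, so they have no background beside them. Among the other feedback inhibitors of ERK, the Sprouty, Spred and related genes, 0 of 14 passed in limma (4 at an unadjusted p under 0.05), 10 had a positive difference and the median was 0.08 (0.04 without placebo array 1 and 0.03 without ILPD array 4). Errfi1, an inhibitor of the EGF receptor, had the largest difference (0.69, limma adjusted p = 0.123), and Lztr1, which helps to degrade Ras proteins, the most negative (-0.13, 0.243). Spry1, Spry2 and Spry4 were picked from these 14 genes after their values were seen. They do not stand for the list, in which 4 genes had a negative difference. These 3 differed by 0.33 (limma adjusted p = 0.0910), 0.35 (0.333) and 0.15 (0.791). Over the alternatives they lay at 0.26 to 0.42, 0.21 to 0.51 and -0.07 to 0.43.

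Among the substrates of these phosphatases, the MAP kinases themselves, 0 of 11 measured genes passed in limma (2 at an unadjusted p under 0.05), and the median difference was 0.01, or -0.01 to 0.07 over the alternatives. The most positive was Mapk7, which encodes ERK5 (0.27, limma adjusted p = 0.114), and the most negative Mapk9, which encodes JNK2 (-0.25, 0.131; -0.16 after quantile and -0.15 after cyclic loess normalization). In the tier of upstream kinases 1 of 22 fell and 0 rose. This was Map3k11, or MLK3, a kinase upstream of JNK, which fell by 0.58 (SE 0.08, limma adjusted p = 0.00976). Its mean was 8.97 ± 0.18 (SD, n = 3) in placebo and 8.38 ± 0.09 (SD, n = 5) in ILPD, and the call held in all 14 alternatives (up to 0.0346). Among uncalled members, Map3k6 (0.43, adjusted p = 0.142) and Map2k6, an activator of p38 (-0.21, 0.401; -0.09 without placebo array 3), lay at the ends. Of 22 Ras proteins, exchange factors and scaffolds, Nras rose by 0.39 (SE 0.07, adjusted p = 0.0239; 9 of 14 alternatives). The extremes of the other members were Rasgrp4 (0.25, 0.198) and Sos2 (-0.25, 0.161), both exchange factors for Ras. In the 8 measured kinases downstream of MAP kinases 0 passed in limma (3 at an unadjusted p under 0.05), and the differences lay between 0.20 for Mknk1 (adjusted p = 0.202) and -0.28 for Mapkapk3 (0.163; -0.16 without placebo array 3).

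Transcription factors that respond to ERK were the list with most calls, 2 that rose and 1 that fell of 13. Of all named genes 3.46% were called in either direction. The list was singled out of 9 after the counts were seen, so its count is a description. Its differences were positive for 6 genes and negative for 7, with a median of -0.01. Ets1 rose by 0.59 (SE 0.07, limma adjusted p = 0.00364) and passed in all 14 alternatives, with a mean of 9.18 ± 0.06 (SD, n = 3) in placebo and 9.77 ± 0.11 (SD, n = 5) in ILPD. Elk4, a partner of serum response factor, rose by 0.32 (adjusted p = 0.0497; 4 of 14), and Creb1, which binds the cAMP response element, fell by 0.35 (0.0462; 5 of 14). Myc (0.29, 0.372; 0.15 without placebo array 1 and 0.45 without placebo array 3) and Elk1 (-0.32, 0.107) did not pass. In the immediate early list 1 of 33 rose, the Kruppel-like factor Klf10, by 0.74 (SE 0.10, adjusted p = 0.00579), in all 14 alternatives. Its relative Klf4 (0.73, 0.0825) and the mRNA decay factor Zfp36l1 (-0.55, 0.0694) did not pass. The list median was -0.01, and it was -0.11 without placebo array 1 and 0.33 without placebo array 3.

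Other phosphatases showed no call in limma, with 0 of 15 atypical DUSPs and related enzymes, which lack the kinase-binding domain of the 10 members, and 0 of 10 tyrosine and serine/threonine phosphatases of MAP kinases. At an unadjusted p under 0.05 these were 6 and 3, again without a share of all probe sets to read them against. The atypical Dusp12 was higher by 0.69 with no overlap between groups (limma adjusted p = 0.0551; 3 of 14 alternatives), and Dusp22 was the most negative (-0.17, 0.248). The median of the atypical DUSPs was 0.14, and it was 0.06 after quantile and 0.08 after cyclic loess normalization, 0.07 without placebo array 1 and 0.08 without placebo array 2. In the other list the differences ran from -0.21 for Ppp2r1a (adjusted p = 0.150; -0.07 after quantile and -0.05 after cyclic loess normalization) to 0.20 for Ppp2r1b (0.174; 0.12 after quantile normalization and 0.13 without placebo array 2), both scaffold subunits of protein phosphatase 2A.

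Dusp6 had the smallest unadjusted p of the family, and the genes with the most similar pattern over the 8 arrays were looked up among 14496 other named genes. By Pearson correlation of log2 values these were Tp53rkb (0.98), Ptpn18, a tyrosine phosphatase (0.98), Brca2 (0.97), Tacc3 (0.97) and Obi1 (0.96). After each group's mean was removed, the correlations with Dusp6 were 0.93, 0.95, 0.92, 0.91 and 0.94. Of these genes Tp53rkb (0.32, limma adjusted p = 0.0355) and Ptpn18 (0.50, 0.0122) rose, and the others did not pass. The genes were picked as the closest of many over few arrays that share their hybridisations, so the values are a description. Among the family, Dusp2 tracked Dusp6 most closely over all arrays (0.77), but at 0.25 after removal of the group means. That was the smallest in size of the family, with Dusp7 at -0.56 and the others from 0.39 (Dusp8) to 0.49 (Dusp1).

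**Figure D4:**
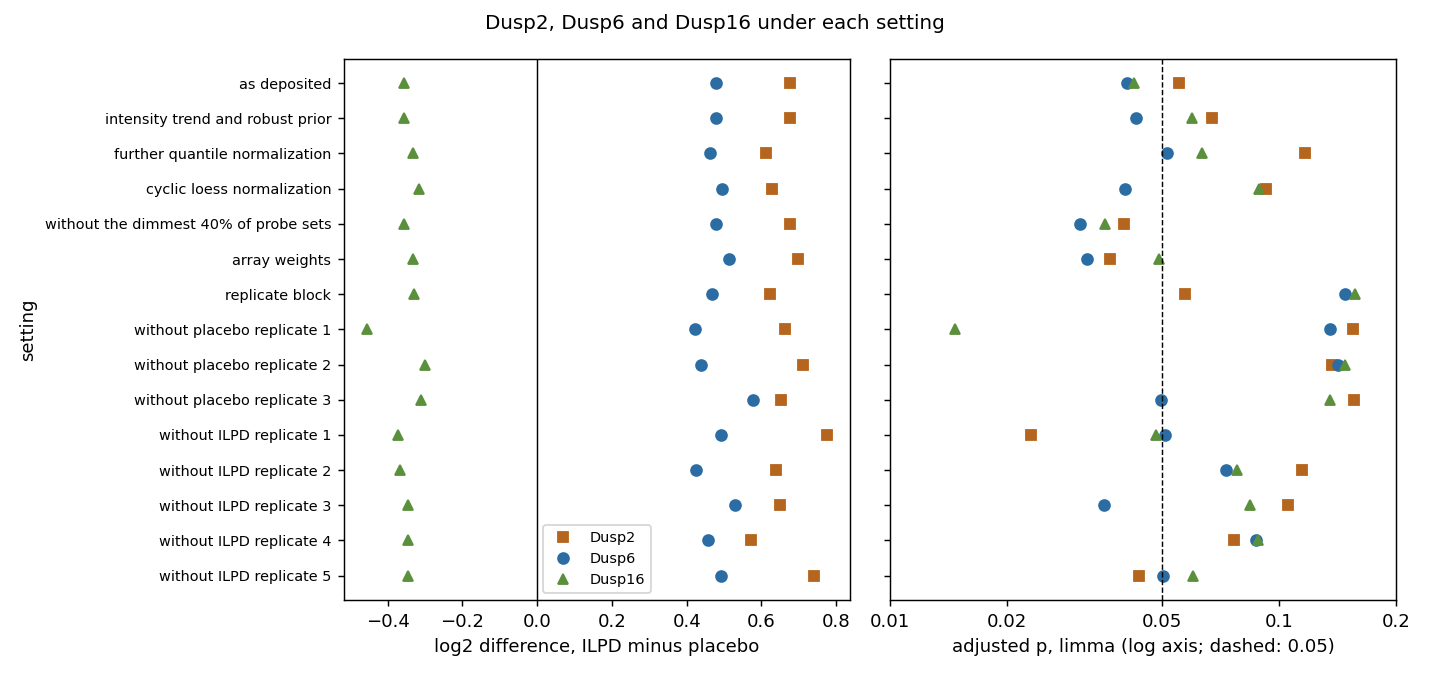
Log2 difference (left) and limma adjusted p on a log axis (right) for Dusp2, Dusp6 and Dusp16 with the values as deposited and under 14 alternatives. The differences keep their sign throughout, while the adjusted p values lie on both sides of 0.05 for all 3 genes.

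Markers of cell types were set beside the tissue label, without a test of it. All 15 ventricular cardiomyocyte markers were measured, with mean log2 levels of 13.32 to 13.39 in placebo and 13.10 to 13.25 in ILPD, and all 15 had a negative difference. Of these Tnnc1 passed (-0.37, limma adjusted p = 0.0195; 9 of 14 alternatives), at -0.23 after quantile and -0.19 after cyclic loess normalization. The list median of -0.16 was -0.02 after quantile and 0.04 after cyclic loess normalization. Endothelial markers were positive in 8 of 11, with mean levels of 10.25 to 10.31 in placebo and 10.31 to 10.53 in ILPD, and Egfl7 (0.60, limma adjusted p = 0.0282; 8 of 14 alternatives) and Robo4 (0.43, 0.0381; 4 of 14) rose. Smooth muscle and pericyte markers were positive in 8 of 10, at 9.69 to 9.74 and 9.82 to 10.04, and the potassium channel gene Kcnj8 rose (0.64, 0.0120; 12 of 14). Fibroblast markers were positive in 3 of 11, atrial in 3 of 4, erythroid in 1 of 4 and mast cell in 1 of 5, with 0 calls in limma among these 4 lists (1 fibroblast marker and 0 others at an unadjusted p under 0.05). Array medians were 7.08 to 7.14 in placebo and 7.16 to 7.20 in ILPD, and precision is limited by how few arrays there are.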

How the data were processed

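Total RNA from 8 left ventricle samples (3 placebo, 5 ILPD by title) was biotin-labelled and hybridised to Affymetrix arrays, per the labels' protocols. The authors deposited 1 log2 intensity per probe set and array. The log2 scale was settled from the range of the values, their normalization is not stated by these sources, and R 2.14.2 is named in the submitters' processing notes. Of 28826 probe sets, 15209 had 1 gene symbol in the platform annotation, 306 several and 13311 none here, and 15178 of the first were updated by gene ID from RefSeq (GRCr8). For list genes, the brightest probe set on average was used.

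The 2 groups were compared in limma 3.58.1 under R 4.3.3 (lmFit, eBayes, no covariates, two-sided, Benjamini-Hochberg over all probe sets, threshold 0.05), with no pseudocount and no filter. On simulated arrays of this comparison (28826 probe sets, 200 changed, 5 runs) 94% of 1.5-fold and 98.8% of 2-fold changes were called, with 4.65% false calls. The simulated noise was normal, independent and drawn from limma's own variances, and the changed probe sets were taken at random from all. Of the 10 members, 7 had a placebo SD and 8 an ILPD SD above the median of all probe sets. The simulated shares may therefore not hold for them. Changes as small as those called for Dusp6 (1.39-fold) and Dusp16 (1.28-fold, higher in placebo) were not simulated. Named genes were all members, every called gene of each list, the extreme uncalled genes of each pathway list and the 5 closest to the member with the smallest p; Spry1, Spry2 and Spry4 were added after their values were seen. The members and lists were chosen with earlier results of these data known. The alternatives were a trended robust prior, quantile and cyclic loess normalization, leaving out the dimmest 40% of probe sets (all 10 members stayed), array weights, the replicate block, a threshold of 0.1 and leaving out each array. Plots were made in matplotlib 3.10.9 (Python 3.11.15).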

Additional observations from a re-analysis of the deposited data

Results flagged for a closer look

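In the ILPD group of 5 arrays, 41 genes (the 10 DUSPs and 31 other named genes) were checked for an array whose distance to its nearest neighbour was more than 0.71 of the group's range. None of the DUSPs met this. Klf10 did in ILPD array 4, at 9.81 against 9.42 to 9.49 in the other ILPD arrays. Mmp9 did in ILPD array 3, at 7.07 against 7.49 to 7.63, and Rasgrp4 in the same array, at 7.34 against 7.71 to 7.77. Chance alone marks about 1 in 20 such groups, and 3 of 41 were marked here.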

How the results depend on the processing

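Dusp6 kept its direction but lost its call after quantile normalization (0.46) and with the replicate number as a block (0.47), and lay between 0.42 and 0.58 when 1 array was left out. Dusp16 lost its call with the trended robust prior (-0.36), after quantile (-0.33) and cyclic loess (-0.32) normalization and with the replicate block (-0.33), and lay between -0.46 and -0.30 when 1 array was left out. Dusp2 gained a call without dim probe sets (0.68), with array weights (0.70) and at a threshold of 0.1 (0.68), and lay between 0.57 and 0.77 without 1 array. Signs turned for uncalled members: Dusp7 after quantile (0.0375) and cyclic loess (0.0614) normalization; Dusp9 likewise (-0.0162 and -0.0039); Dusp8 after quantile (0.0096), after cyclic loess (0.0251) and with array weights (0.0308), within -0.21 to 0.14 without 1 array; Dusp10 with the replicate block (-0.0402), within -0.10 to 0.32 without 1 array; and Dusp1 within -0.10 to 0.55 without 1 array.

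Of the 10 members, 2 were called as deposited, 1 with the trended prior or cyclic loess, 3 without dim probe sets or with array weights, 0 after quantile normalization or with the replicate block, and 0 to 2 without 1 array (0 without placebo array 2, ILPD array 2 or ILPD array 4). Of all probe sets, 811 were called, 938 without dim ones, 998 with array weights, 484 after quantile normalization, 459 with the replicate block, 1756 at a threshold of 0.1 and 172 to 975 without 1 array. Of the pathway genes, 8 rose and 4 fell at a threshold of 0.1, 1 fell with the trended prior, and without 1 array 2 to 5 rose and 1 to 3 fell. The labels do not say whether replicate numbers pair the samples, and correlations over so few arrays cannot settle it. Deviations of same-numbered arrays from their group means correlated at 0.22, -0.06 and -0.10. Among the placebo arrays, only array 1 correlated best with its own number. The causes were not tested, beyond the smaller number of arrays when 1 is left out. Each member had 1 probe set, so averaging probe sets per gene would change nothing and was not run. With no detection values, how far a dim probe set such as those of Dusp4 and Dusp9 could show a change is unknown.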
